A study of Homo sapiens with 6 samples.

Results

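The genes described here are the machinery and cargo receptors of macroautophagy together with transcription factors that regulate them. The 39 members were taken by symbol, and each of the 39 matched a row among the 57905 gene identifiers of the deposited table. They were arranged by role as initiation (5 genes), nucleation (6), effectors of phosphatidylinositol 3-phosphate with the lipid supply proteins (5), conjugation (10), ATG8 proteins (4), cargo receptors (4) and transcriptional regulators (5). The 6 samples are of A549, an established line of human lung adenocarcinoma cells. In 3 of them the cells had been transfected by Lipofectamine 3000 with miR-19a at 25 nM, and in 3 with a negative control microRNA, miR-NC, at 25 nM, with harvest at 24 h in both groups. Both groups therefore share the cell line, the transfection reagent and the RNA dose, and the labels do not say which strand of miR-19a was supplied or how much of it the cells held.

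Autophagy encloses cytoplasm in a double membrane, the autophagosome, and delivers it to lysosomes for breakdown. The ULK kinase complex starts the process, a lipid kinase complex built around PIK3C3 and BECN1 then marks the membrane with phosphatidylinositol 3-phosphate, and WIPI and ATG2 proteins bring lipid to it. A ubiquitin-like conjugation cascade attaches ATG8 proteins (the LC3 and GABARAP families) to the growing membrane, where receptors such as SQSTM1 tether the cargo. TFEB, TFE3, MITF and the FOXO factors switch on many of these genes when nutrients are short.

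Total counts lay between 15699037 and 17957932 per library. Within a group no pair of libraries was a duplicate, with a chi-square per gene of 1.6 to 4.22 where sampling noise gives about 1, against 27.3 to 30.9 between the groups. Nothing in the labels says that replicates came from separate cultures. The p-values therefore reflect only the spread among these libraries, which may be technical. Epithelial markers of the line (KRT7, KRT8, KRT18, CDH1 and EPCAM) summed to 1674 to 1712 FPKM (fragments per kilobase of transcript, scaled to library size) in miR-NC and 1788 to 1870 in miR-19a, although EPCAM stayed under 1 FPKM. The sum joins opposite changes, since KRT8 and KRT18 rose (0.28 and 0.38 on the log2 scale) and KRT7 and CDH1 fell (-0.28 and -0.17). The 7 fibroblast markers summed to at most 2.02 FPKM in miR-NC and 3.69 in miR-19a, with COL1A1 alone reaching 1 FPKM. Of 5 leukocyte markers CD14 alone reached 1 FPKM and CD3E was listed at 0 throughout, and 3 endothelial markers summed to at most 0.05 FPKM.

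Autophagy genes moved in both directions after miR-19a, with a median size close to that of all tested genes. All 39 passed the expression filter, a mean of at least 1 FPKM over the 6 libraries. With edgeR's quasi-likelihood test, 19 of the 39 passed an adjusted p of 0.05, against a background of 48.4% of 12452 tested genes. Of these 19, 8 rose and 11 fell, where 24.9% of all tested genes rose and 23.5% fell. The median log2 fold change of the members was -0.014, and that of all tested genes -0.0045. Taken without sign, the medians were 0.16 for the members and 0.18 for all tested genes. A called change of at least 0.5 on the log2 scale was seen in 7 of the 39 members, set beside a background of 11.7%. These were ATG4A, OPTN, CALCOCO2 and FOXO1, which rose, and ATG4D, MITF and ATG16L1, which fell. FOXO1 reached the filter only through its level in miR-19a, and its call was lost with limma on FPKM, so its place in these counts supports nothing. The 3 libraries of each group did not overlap in 24 members, all 19 called ones included, where the background is 54% of tested genes. In bulk RNA, fewer cells with a transcript and less of it per cell cannot be told apart.

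**Figure D1:**
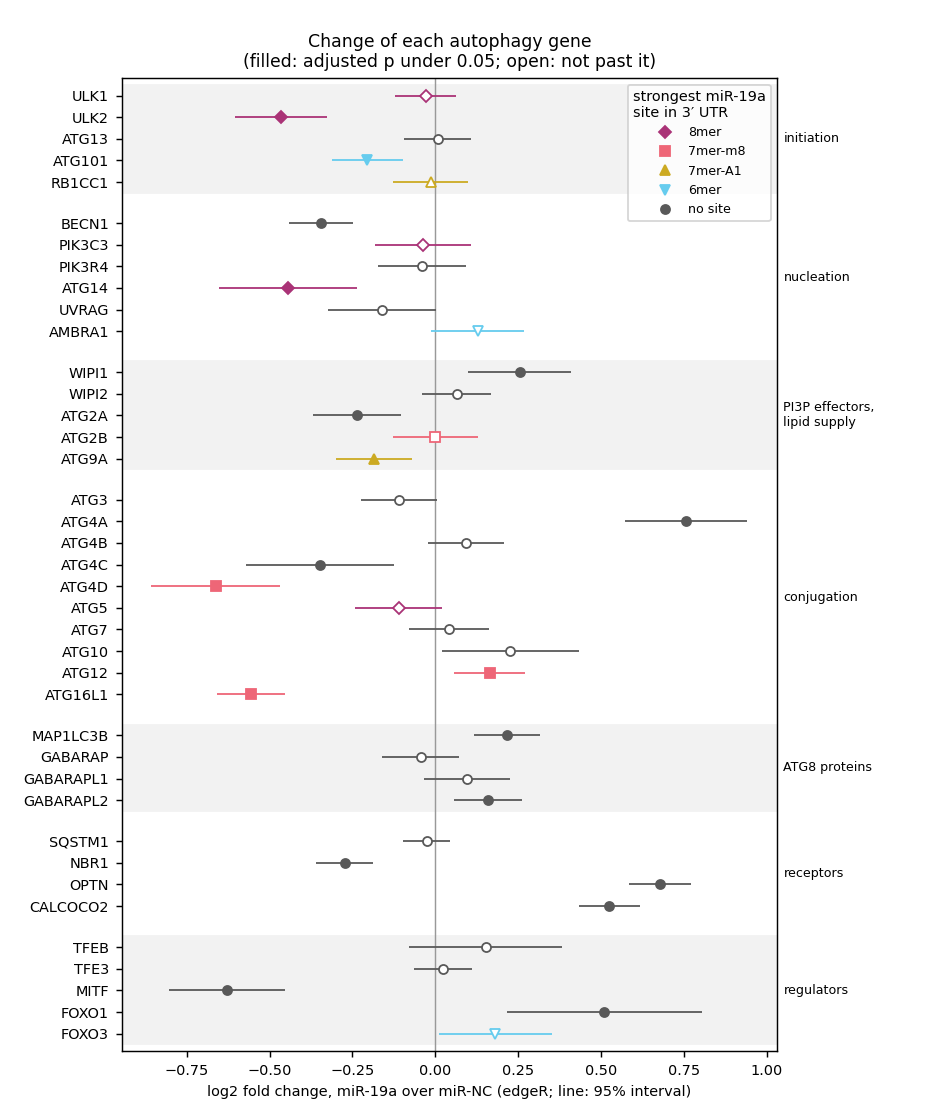
Log2 fold change (x axis, miR-19a over miR-NC) of the 39 autophagy genes grouped by role, with a 95% interval as a line. Symbols are filled for an adjusted p under 0.05 in edgeR, with shape and colour for the strongest miR-19a-3p site in the 3′ UTR. Filled points lie on both sides of 0 in the effector and lipid supply, conjugation and receptor groups, from -0.66 for ATG4D to 0.76 for ATG4A. In the regulator group the only filled point above 0 is FOXO1, which reached the expression filter only through its level in miR-19a.

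The seed of miR-19a-3p, its bases 2 to 8, is printed in capitals in the RefSeq sequence (chr13:91350939-91350961, plus strand, GRCh38.p14), since the sites shown after it are its complements.
miR-19a-3p: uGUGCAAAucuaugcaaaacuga
In the 3′ UTR of the GENCODE v29 transcript with the longest coding sequence, 5 members had an 8mer match (TTTGCACA), 4 had a 7mer-m8 (TTTGCAC) and 2 a 7mer-A1 (TTGCACA) as their strongest site, 3 had only a 6mer (TTGCAC) and 25 had none. Among 10550 tested genes with a 3′ UTR, the 4 classes in that order were held by 6.06%, 7.39%, 5.21% and 9.23%. Matches to the other strand, miR-19a-5p, were not sought, so a site here means one of miR-19a-3p. The 8mer sites of 5 members follow because the members that carry them ran from a clear fall to no detectable change. Each line gives 30 bases of the transcript, 5′ to 3′, with the seed match in capitals.
ULK2: aaaacttgtattcatgtgaaccTTTGCACA
ATG14: ggttatggaatataagaaaagtTTTGCACA
ATG5: aaaaaatccactgacttgtattTTTGCACA
PIK3C3: cataatataccttaagtatattTTTGCACA
ULK1: tgtggcgggcgggtgaggctgcTTTGCACA
On GRCh38 these matches lie at chr17:19775584-19775591 (minus strand, ULK2), chr14:55366628-55366635 (minus, ATG14), chr6:106184930-106184937 (minus, ATG5), chr18:42084200-42084207 (plus, PIK3C3) and chr12:131922288-131922295 (plus, ULK1), each within the last exon. ULK2 has a 7mer-A1 match in addition, and ATG14 a 7mer-m8. The 7mer-m8 matches are shown for the 2 conjugation genes that fell and the 1 that rose.
ATG4D: agggcctgactcacgtactgtagTTTGCAC
ATG16L1: acaccctttttatcacttttaaaTTTGCAC
ATG12: caactctgaagaatacataggacTTTGCAC
They lie at chr19:10553331-10553337 (plus, ATG4D), chr2:233295383-233295389 (plus, ATG16L1) and chr5:115830144-115830150 (minus, ATG12), again in the last exon. ATG2B is the fourth member of the 7mer-m8 class, and RB1CC1 and ATG9A form the 7mer-A1 class.

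Of the 11 members with a site of at least 7 bases, 5 fell (ULK2, ATG14, ATG4D, ATG16L1 and ATG9A), 1 rose (ATG12) and 5 did not pass (ULK1, ATG5, PIK3C3, ATG2B and RB1CC1). Over all tested genes with an 8mer, 48.4% fell and the median log2 fold change was -0.15. In the 7mer-m8 class 37.2% fell, with a median of -0.06, and 185 of 780 genes rose. In the 7mer-A1 class 32.7% fell, in the 6mer class 23.8%, and in the class without a site 21.4%, with a median of 0.03. The members fell in 2 of 5 cases with an 8mer, 2 of 4 with a 7mer-m8, 1 of 2 with a 7mer-A1, 1 of 3 with a 6mer and 5 of 25 without a site. Of the 11 members that fell, 6 had no site of 7 or 8 bases: ATG101 (a 6mer), BECN1, ATG2A, ATG4C, NBR1 and MITF. GABARAPL1 has an 8mer in its longest annotated 3′ UTR and none in the transcript used here.

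**Figure D2:**
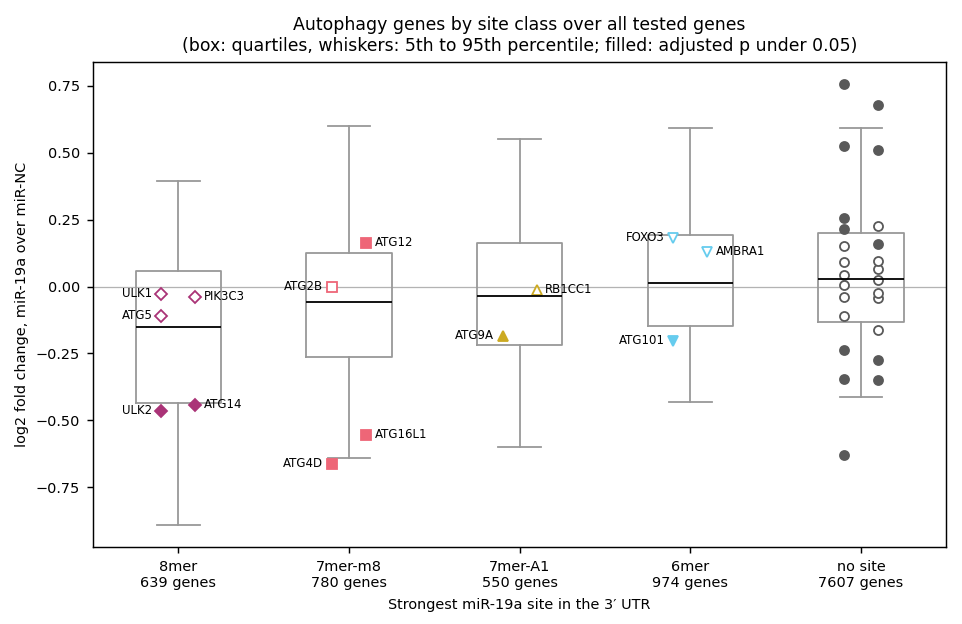
Log2 fold change (y axis) of the autophagy genes by the strongest miR-19a-3p site in their 3′ UTR (x axis), over boxes for all tested genes of the class. Boxes show quartiles and median, whiskers the 5th and 95th percentiles, and filled symbols an adjusted p under 0.05. In the 8mer class ULK2 and ATG14 lie at -0.47 and -0.44, whereas ULK1, PIK3C3 and ATG5 lie between -0.11 and -0.03.

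In the initiation complex ULK2 fell and ULK1, its closest relative, did not pass. ULK2, a kinase that phosphorylates the other subunits, stood at 35.3, 36.4 and 32.8 CPM (counts scaled to library size by TMM) in miR-NC replicates 1 to 3 and at 25.4, 26.2 and 24.1 CPM in miR-19a replicates 1 to 3. Every miR-19a library lay below every control, or -0.47 on the log2 scale (SE 0.069, edgeR adjusted p = 4.9e-08). ULK1, which shares that role, stood at 110.2, 124.5 and 112.4 CPM against 108.8, 113.6 and 117.8 CPM. Its groups overlapped, and the log2 fold change of -0.03 had a 95% interval from -0.12 to 0.06. Per length, ULK1 was the more abundant kinase, with 81.1% ± 0.83 of the summed ULK1 and ULK2 FPKM in miR-NC and 85.3% ± 0.88 in miR-19a (SD, n = 3).

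ATG101, a stabilising partner of ATG13, fell by a smaller amount, from 73.1, 64.8 and 70.4 CPM to 59.7, 57.8 and 63.0 CPM. The libraries of ATG101 did not overlap between the groups, and the change was -0.21 on the log2 scale (SE 0.054, adjusted p = 0.0011). The scaffold subunits ATG13 and RB1CC1 (also called FIP200) did not pass, at 0.01 (95% interval -0.09 to 0.11) and -0.01 (-0.13 to 0.10). RB1CC1 has a 7mer-A1 site.

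In the nucleation group the scaffold BECN1 and the targeting subunit ATG14 fell, and the kinase with its regulatory subunit did not pass. BECN1, which holds the lipid kinase complex together, stood at 103.6, 98.5 and 93.6 CPM in miR-NC and 76.8, 76.6 and 79.5 CPM in miR-19a. All miR-19a values of BECN1 lay below the controls, at -0.34 on the log2 scale (SE 0.048, adjusted p = 9.0e-09), with no site in the 3′ UTR. ATG14, which directs the complex to sites of autophagosome formation, went from 14.9, 16.7 and 14.3 CPM to 10.7, 13.3 and 9.83 CPM. The highest of these miR-19a values, in replicate 2, was still under the lowest control, and the log2 fold change was -0.44 (SE 0.10, adjusted p = 0.00025).

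The catalytic subunit PIK3C3 and the pseudokinase subunit PIK3R4 each had a log2 fold change of -0.04, with 95% intervals of -0.18 to 0.11 and -0.17 to 0.09. UVRAG, which replaces ATG14 in a second form of the complex, had 20.4, 20.5 and 20.9 CPM in miR-NC and 17.8, 19.6 and 17.8 CPM in miR-19a. These groups did not overlap, yet UVRAG did not pass (-0.16, SE 0.082, adjusted p = 0.101). AMBRA1, a BECN1 partner, was at 0.13 (SE 0.071, adjusted p = 0.132).

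Among the effectors and lipid suppliers, WIPI1 rose and ATG2A and ATG9A fell, all by small amounts. WIPI1, a reader of phosphatidylinositol 3-phosphate, lay at 20.5, 20.6 and 20.7 CPM in miR-NC and at 26.4, 23.1 and 24.3 CPM in miR-19a. Its rise of 0.26 (SE 0.078, adjusted p = 0.0047) lost its call without miR-19a replicate 1, the highest library (0.20, adjusted p = 0.055; 0.0039 to 0.055 over all alternatives). ATG2A, a lipid transfer protein, had 41.8, 44.5 and 41.2 CPM against 33.8, 33.2 and 41.0 CPM. The value in miR-19a replicate 3 came close to the lowest control, and the log2 fold change was -0.24 (SE 0.066, adjusted p = 0.0021). Its paralog ATG2B, which has a 7mer-m8 site, was at 0.00018 (95% interval -0.13 to 0.13).

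ATG9A, the membrane protein of the vesicles that seed autophagosomes, had 59.2, 67.8 and 59.0 CPM in miR-NC and 51.7, 58.9 and 52.8 CPM in miR-19a. The fall of 0.19 (log2 fold change -0.19, SE 0.058, adjusted p = 0.0058) lost its call without miR-NC replicate 2 (-0.12, adjusted p = 0.102), without miR-19a replicate 1 (-0.15, adjusted p = 0.059) and with limma on FPKM (adjusted p = 0.066 with a pseudocount of 1 and 0.065 with 0.1), in a range of 0.0013 to 0.102 over all alternatives. WIPI2, which recruits ATG16L1, did not pass at 0.06 (95% interval -0.04 to 0.17). The paralog WDR45B (WIPI3), which is outside the 39, fell from 128.9, 120.8 and 128.7 CPM to 54.8, 57.5 and 57.7 CPM. That is -1.15 on the log2 scale (SE 0.048, adjusted p = 3.2e-31), larger in size than that of any of the 39, and an 8mer lies at chr17:82614623-82614630 in its 3′ UTR.
WDR45B: gtatttaatcatgatgtttaatTTTGCACA
Per length WDR45B held 65.1% ± 1.03 of the summed FPKM of WIPI1, WIPI2, WDR45 and WDR45B in miR-NC and 42.7% ± 1.36 in miR-19a (SD, n = 3), while the sum went from 54.5 ± 1.37 to 37.0 ± 0.17 FPKM.

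The conjugation group held both the highest rise and the deepest fall of the 39 genes, and both were in ATG4 proteases, which trim ATG8 proteins before conjugation and release them from membranes afterwards. ATG4A (ENSG00000101844) stood at 11.9, 11.4 and 11.5 CPM in miR-NC and at 19.6, 20.5 and 18.9 CPM in miR-19a. The libraries were far apart relative to their spread, and the log2 fold change was 0.76 (SE 0.092, adjusted p = 1.4e-10). ATG4D (ENSG00000130734) moved the other way, from 16.7, 17.4 and 16.2 CPM to 10.7, 10.4 and 10.7 CPM. Its miR-19a libraries were nearly equal and all below the controls, at -0.66 (SE 0.097, adjusted p = 3.2e-08), and it carries the 7mer-m8 site shown above.

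ATG4C fell less, from 10.4, 13.2 and 13.1 CPM to 9.64, 9.48 and 9.72 CPM, with the first control library close to the miR-19a values (-0.35, SE 0.11, adjusted p = 0.0071). ATG4B, the protease with the broadest activity on ATG8 proteins, did not pass at 0.09 (95% interval -0.02 to 0.21). Per length, the 4 proteases together came to 22.5 ± 0.32 FPKM in miR-NC and 21.9 ± 0.18 FPKM in miR-19a (SD, n = 3). Within that sum the share of ATG4A was 17.6% ± 0.57 in miR-NC and 30.2% ± 1.30 in miR-19a, and that of ATG4D was 32.6% ± 0.53 and 20.9% ± 0.36. ATG4B held the highest mean share in miR-19a, 34.99% ± 0.84, whereas in miR-NC its 32.3% ± 1.77 and the share of ATG4D lay within their spread.

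ATG16L1 (ENSG00000085978), which places the conjugation complex on the membrane, fell from 81.6, 83.3 and 79.8 CPM to 56.9, 54.7 and 54.9 CPM. The gap between the groups was many times the spread within them, or -0.56 on the log2 scale (SE 0.051, adjusted p = 8.7e-15). ATG12, the ubiquitin-like protein that joins ATG5, lay at 57.4, 53.8 and 56.9 CPM in miR-NC and at 62.1, 64.9 and 61.5 CPM in miR-19a. It rose by 0.16 on the log2 scale (SE 0.054, adjusted p = 0.0087), and the call was lost without miR-19a replicate 2 (0.14, adjusted p = 0.0615) and with limma at a pseudocount of 1 (0.13, adjusted p = 0.052), in a range of 0.0087 to 0.0615 over all alternatives.

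The enzymes of the cascade did not pass. ATG7, the activating enzyme, was at 0.04 (95% interval -0.08 to 0.16), and ATG3, which hands over ATG8 proteins, at -0.11 (-0.22 to 0.0048). ATG5, the partner of ATG12, was at -0.11 (-0.24 to 0.02) with its 8mer. ATG10, which joins ATG12 to ATG5, had 12.0, 11.8 and 14.7 CPM against 16.2, 16.3 and 12.6 CPM. Replicate 3 stood apart from the other libraries in both groups, and ATG10 missed the threshold at 0.23 (SE 0.10, adjusted p = 0.064) but passed without miR-NC replicate 3 (0.33, adjusted p = 0.012) or miR-19a replicate 3 (0.34, adjusted p = 0.0097). ATG3 passed without miR-NC replicate 2 (-0.15, adjusted p = 0.029).

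**Figure D3:**
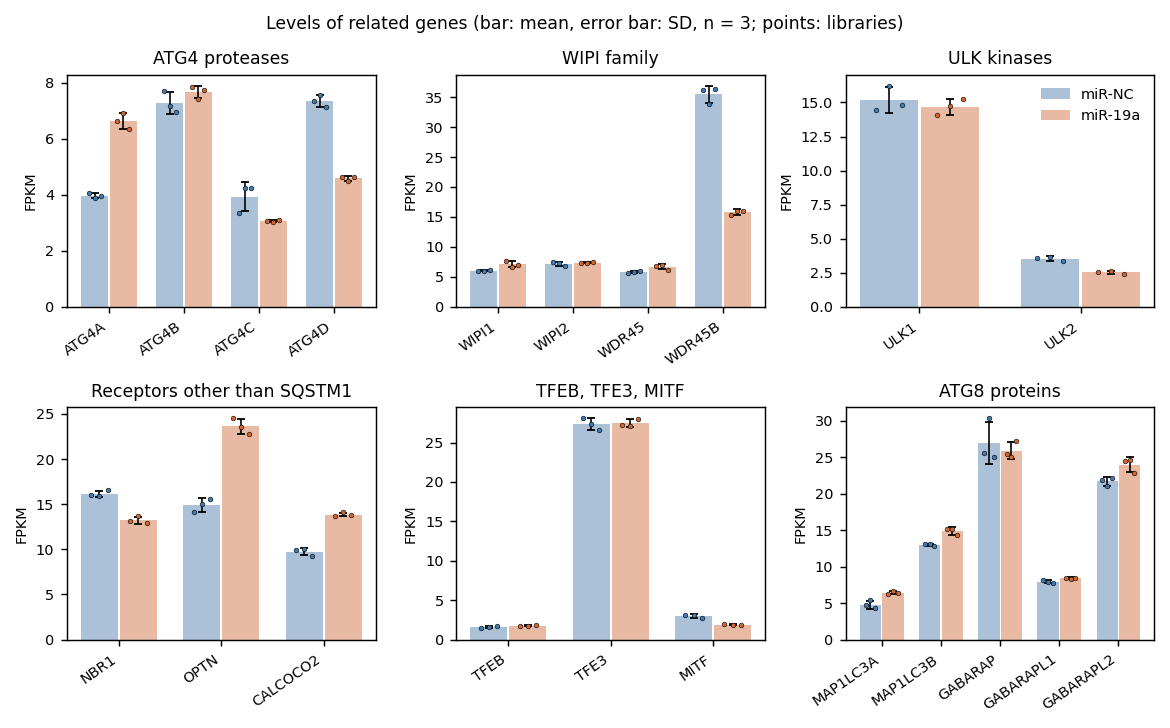
FPKM (y axes, from 0) of related autophagy genes in miR-NC (blue) and miR-19a (orange), with bars for means, error bars for the SD and points for the 3 libraries of each group. ATG4A and ATG4D exchange their order between the groups, and WDR45B, the tallest bar of its panel, drops from about 35.5 to 15.8 FPKM.

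Of the 4 ATG8 proteins among the members, 2 rose slightly, 2 did not pass and none fell. Over all tested genes 24.9% rose and 23.5% fell. MAP1LC3B, the LC3 form most used to follow autophagosomes, lay at 69.7, 69.8 and 67.8 CPM in miR-NC and at 82.0, 81.8 and 77.2 CPM in miR-19a. All miR-19a libraries of MAP1LC3B exceeded the controls, at 0.22 (SE 0.050, adjusted p = 0.00020), and its near-identical copy MAP1LC3B2 had at most 0.25 FPKM in any library. GABARAPL2 lay at 66.8, 64.3 and 67.1 CPM against 75.5, 75.6 and 70.2 CPM. Its rise of 0.16 (SE 0.051, adjusted p = 0.0081) lost its call without miR-19a replicate 2 (0.14, adjusted p = 0.0515, the highest over all alternatives, the lowest being 0.0028).

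MAP1LC3A, an ATG8 protein outside the 39, rose by 0.45 (SE 0.12, adjusted p = 0.00092), from 8.31, 9.56 and 7.50 CPM to 11.2, 12.0 and 11.4 CPM. GABARAP and GABARAPL1 did not pass, at -0.04 (95% interval -0.16 to 0.07) and 0.10 (-0.03 to 0.22). The 3 libraries of GABARAPL1 nevertheless did not overlap between groups, at 33.4, 32.5 and 31.9 CPM against 34.9, 34.3 and 35.2 CPM. Per length GABARAP and GABARAPL2 were the most abundant, with 36.2% ± 2.44 and 29.2% ± 1.92 of the summed FPKM of MAP1LC3A and the 4 member genes in miR-NC, and 32.5% ± 1.62 and 30.1% ± 1.137 in miR-19a (SD, n = 3).

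Among the cargo receptors OPTN and CALCOCO2 rose, NBR1 fell and SQSTM1 did not pass. OPTN (ENSG00000123240), which links ubiquitin-tagged mitochondria and bacteria to LC3, went from 72.5, 77.6 and 79.7 CPM to 127.2, 122.1 and 118.6 CPM. No library came near the other group, and the rise was 0.68 on the log2 scale (SE 0.047, adjusted p = 4.5e-20), the smallest adjusted p of the 39. CALCOCO2 (ENSG00000136436, also called NDP52), a receptor with overlapping cargo, went from 82.95, 83.8 and 77.1 CPM to 115.5, 118.9 and 116.7 CPM. This rise was 0.53 (SE 0.046, adjusted p = 1.5e-15), with the 3 miR-19a libraries within a few CPM of one another.

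NBR1, a receptor for ubiquitin-tagged aggregates and peroxisomes, fell from 135.2, 135.2 and 139.2 CPM to 111.8, 116.6 and 110.6 CPM. The groups of NBR1 did not overlap, at -0.27 (SE 0.043, adjusted p = 1.9e-07). SQSTM1 (p62), which gathers ubiquitin-tagged proteins, had 1218, 1258 and 1219 CPM in miR-NC and 1209, 1183 and 1237 CPM in miR-19a. Its groups overlapped, at -0.03 (95% interval -0.10 to 0.04). Per length SQSTM1 was the most abundant of the 39, with 79.7% ± 0.28 of the summed FPKM of the 4 receptors in miR-NC and 75.4% ± 0.73 in miR-19a (SD, n = 3).

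**Figure D4:**
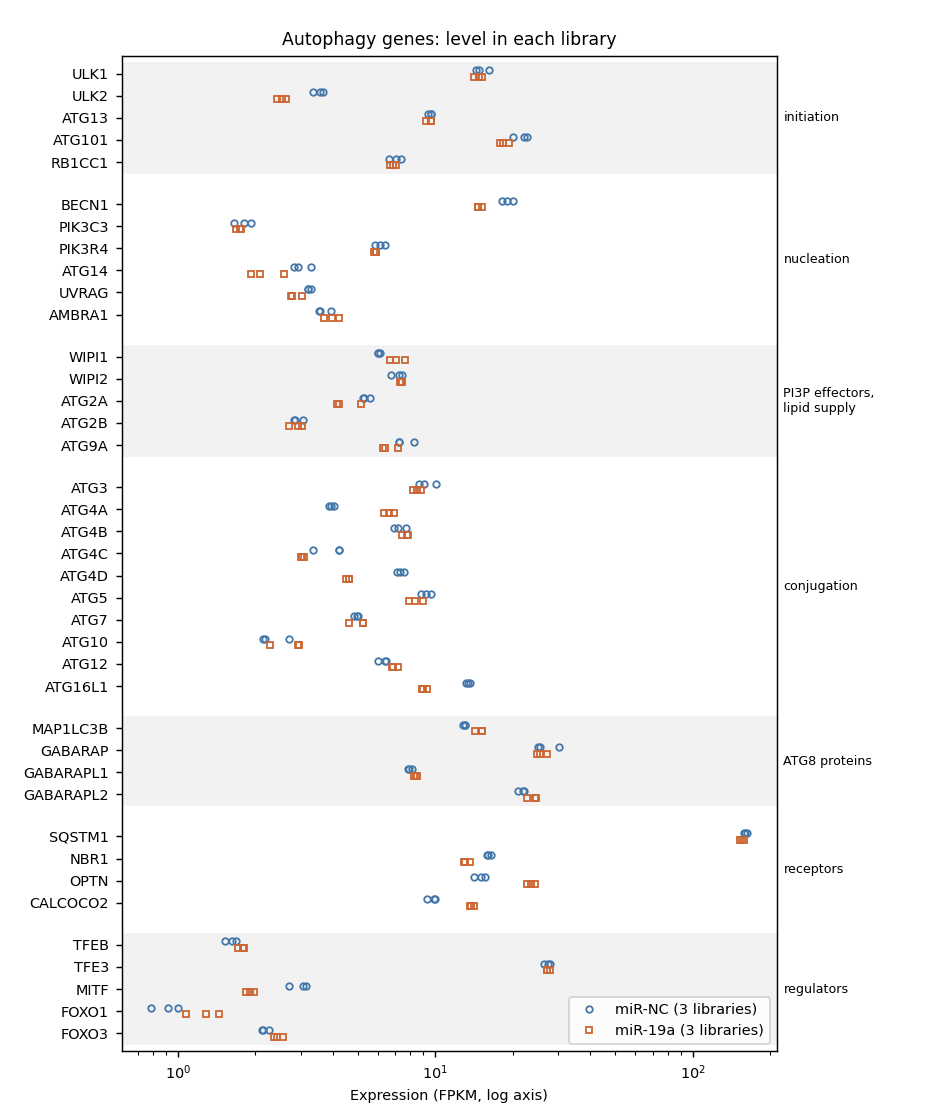
FPKM of each autophagy gene in every library (log axis), grouped by role, with circles for the 3 miR-NC and squares for the 3 miR-19a libraries. SQSTM1 lies far above the rest, the squares of OPTN, CALCOCO2 and ATG4A lie right of their circles, and those of ATG16L1, ATG4D and MITF lie left.

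Of the regulators, MITF fell. FOXO1 was called higher, but it reached the filter only through its level in miR-19a. MITF (ENSG00000187098), a relative of TFEB best known from pigment cells, had 22.2, 22.9 and 19.5 CPM in miR-NC and 14.5, 13.4 and 14.0 CPM in miR-19a. Every miR-19a library lay below the controls by more than the spread, at -0.63 (SE 0.088, adjusted p = 9.4e-09), with no site. TFE3 and TFEB, its relatives, did not pass: TFE3 was at 0.02 (95% interval -0.06 to 0.11) and TFEB at 0.15 (-0.08 to 0.38). TFEB did not overlap between the groups, at 8.67, 9.25 and 9.54 CPM against 10.3, 9.84 and 10.4 CPM. Per length TFE3 held 85.6% ± 0.42 of the summed FPKM of these 3 genes in miR-NC and 88.2% ± 0.32 in miR-19a, and MITF 9.32% ± 0.54 and 6.13% ± 0.24 (SD, n = 3).

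FOXO1 (ENSG00000150907), a factor restrained by insulin signalling and the least abundant member per length, stood at 5.36, 5.87 and 4.58 CPM in miR-NC and 6.34, 8.54 and 7.63 CPM in miR-19a. The lowest miR-19a library was close to the highest control, and the log2 fold change was 0.51 (SE 0.15, adjusted p = 0.0028). With limma on FPKM the call of FOXO1 was lost (adjusted p = 0.0649 with a pseudocount of 1 and 0.078 with 0.1, against 0.0011 as the lowest of all alternatives). The pseudocount of 1 gave 0.25 on the log2(FPKM + 1) scale, which understates changes of low genes. Its mean was 0.90 FPKM in miR-NC, under the filter's minimum. FOXO3 did not pass at 0.18 (95% interval 0.01 to 0.35, adjusted p = 0.071), although its groups did not overlap (16.7, 16.6 and 17.5 CPM against 18.5, 18.9 and 20.1 CPM).

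For the 20 members that did not pass, the 95% intervals of the log2 fold change reached at most from -0.33 to 0.43. Some members share annotated exon bases with a neighbouring gene. Only the neighbour with the largest share was taken for each member, so smaller overlaps with further genes are not given. Counting by strand would not separate a member from a neighbour on the same strand. With such a neighbour the shared part was 38.8% of exon bases for ATG9A, 30.5% for GABARAP and 4.32% for FOXO1. With a gene on the opposite strand it was 24.3% for WIPI1, 20.7% for SQSTM1, 19.2% for ATG101, 18.1% for ATG7, 15% for ATG4D and 12.4% for BECN1, and at most 8.05% for any other member. No source used here says whether reads were counted by strand, and the part of these overlaps in the results was not tested.

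Genes of the same pathway outside the 39 were followed in 5 lists, read against the same background of 48.4% called, 24.9% higher and 23.5% lower. Of 16 tested further core and accessory genes, 8 rose and 5 fell, with a median log2 fold change of 0.09. ATG16L2, 1 of the 8, had a mean of 0.94 FPKM in miR-NC and passed the filter only through its level in miR-19a. Among them TMEM41B, a lipid scramblase of the endoplasmic reticulum, rose by 0.82 (SE 0.061, adjusted p = 1.2e-18), from 42.5, 40.7 and 33.1 CPM to 69.8, 68.6 and 67.4 CPM. TECPR1, which tethers autophagosomes to lysosomes, and EI24 rose as well, by 0.63 and 0.50, and TBC1D14 and ULK3 fell, at -0.40 and -0.24. Of 17 further cargo receptors, 7 rose and 1 fell, with a median of 0.06. The reticulum receptor ATL3 was the 1 that fell (-0.24, with an 8mer), while CCPG1, another such receptor that has an 8mer, rose (0.30), as did BCL2L13 (0.29) and TOLLIP (0.27).

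Of 16 genes for fusion with lysosomes, 6 rose and 4 fell, with a median of 0.05. EPG5, a tether of that step, fell from 24.9, 27.5 and 23.1 CPM to 13.9, 16.4 and 14.97 CPM, at -0.74 (SE 0.085, adjusted p = 2.7e-11), with an 8mer and both kinds of 7mer in its 3′ UTR. VAMP8, a SNARE of the same step, rose by 0.63, followed by VPS16 (0.35) and PLEKHM1 (0.32), whereas VPS41 fell (-0.30). VPS39 is among the 4 that fell (-0.14, adjusted p = 0.040), and its call was lost with DESeq2, with limma and in other settings. Of 11 genes that control TFEB and FOXO factors, 5 rose and 3 fell, with a median of -0.0037. Of the 3 that fell, PPP3CB (adjusted p = 0.044) and RRAGC (adjusted p = 0.045, with overlapping groups) lost their calls with DESeq2, with no filter and in other settings. FLCN, which restrains TFEB when nutrients are present, is the other (-0.39, with an 8mer). Its partner FNIP2 is among the 5 that rose (0.94), but its mean was 0.78 FPKM in miR-NC, so it passed the filter only through its level in miR-19a. YWHAZ, a 14-3-3 protein, and PPP3R1, a calcineurin subunit, rose by 0.36 and 0.32.

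Of 25 tested lysosomal genes known as TFEB targets, 15 rose and 2 fell, where 24.9% of all tested genes rose and 23.5% fell. Their median log2 fold change was 0.19 against -0.0045 for all tested genes. The list was chosen with earlier results of these data known, so its counts are a description and not a test. The protease CTSL rose from 547.2, 557.3 and 552.6 CPM to 770.6, 757.3 and 728.0 CPM, at 0.44 (SE 0.036, adjusted p = 3.7e-17). NEU1, a sialidase, and GLA, a galactosidase, rose by 0.67 and 0.39. CTSF and CTSD, proteases too, fell, at -0.34 and -0.18, although the libraries of CTSD overlapped between the groups. The libraries of SGSH, among those that rose, overlapped as well (0.18, edgeR adjusted p = 0.034). TFEB and TFE3 themselves, as given above, did not pass, and MITF fell. Whether these factors had a part in the changes of the lysosomal genes was not tested.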

How the data were processed

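Poly(A)-selected RNA of 6 A549 samples (3 per group) was read on an Illumina HiSeq as pairs of 150 nt, and the submitters' processing notes name bcl2fastq 2.17.1.14. The deposited table gives a read count and an FPKM value per gene and library, per the file headers; no source used here names the aligner, counter, annotation or genome build. Identifiers were matched to symbols for 51996 of 57905 genes through a table of gene names and for 342 through GENCODE. The members and gene lists were chosen with earlier results of these data known.

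Counts were tested with edgeR 4.0.16 (TMM scaling, quasi-likelihood test, two-sided, no covariate, Benjamini-Hochberg over all 12452 genes with a mean of at least 1 FPKM, adjusted p under 0.05) in R 4.3.3. The SE was taken as the size of the log2 fold change divided by the root of the F statistic. The 95% interval was built from this SE and a t quantile, and is not an output of edgeR. FPKM served to compare levels between genes, without a test. Totals ran from 15699037 to 17957932 counts and the common coefficient of biological variation was 0.0352. On simulated counts for these 12452 genes with known changes of 1.25, 1.5, 2 and 4 fold in 50 genes each, 35, 43, 48 and 49 were found, and 4 unchanged genes were called. Every simulated gene had the common coefficient of variation, and far fewer genes were changed than the 48.4% called in the data. The simulation therefore does not give the sensitivity or the error rate of the test in these data. Sites of miR-19a-3p alone were sought in GENCODE v29 3′ UTRs (GRCh38), taking for each gene its transcript of longest coding sequence. The miR-19a sequence came from RefSeq. All 39 members were named. Most detail was given for those with an adjusted p under 0.05 and a log2 fold change of at least 0.5 in size, or with a site of at least 7 bases. From each other list at most the 3 rising and 3 falling genes with the smallest adjusted p were named. Paralogs of members and genes named for a limit of their call were added to these. Alternatives were other scalings, DESeq2 1.42.0, limma 3.58.1 on FPKM, other filters, a replicate block, each library left out, and the longest 3′ UTR.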

Additional observations from a re-analysis of the deposited data

How the results depend on the processing

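Of the 19 called members, 14 kept their call in every one of the 15 alternatives that could test them, and 18 of the 20 others were never called. With a filter of 5 FPKM, 25 members were among the 7251 genes tested, and 7 members rose and 6 fell. Over all genes tested there, 2115 rose and 1955 fell. The called members ULK2, ATG14, ATG2A, ATG4C, MITF and FOXO1 lay under that filter and were not tested. Leaving out each library gave 6 to 9 members higher and 10 to 11 lower. Same-numbered libraries did not deviate together (correlations of -0.0096, 0.012 and -0.046), and the replicate block gave 8 members higher and 11 lower. The same block gave 3083 genes higher and 2903 lower over all tested genes, and 41 and 14 in the other lists, where PPP3CB lost its call. Against 41 higher and 15 lower, those lists gave 39 and 10 with DESeq2, 41 and 10 with no filter, 41 and 12 with filterByExpr, 34 and 12 with limma at either pseudocount, 39 and 17 with library totals and 32 and 13 with the filter of 5 FPKM. With single libraries left out they gave 36 to 40 higher and 12 to 14 lower. The calls of VPS39, PPP3CB and RRAGC were lost in several settings. SNAP29 (main edgeR adjusted p = 0.045) and NRBF2 (0.031), which also fell, were not followed singly through the settings. Further calls may therefore be among those lost. Signs changed in uncalled members near 0. ATG13 turned to -0.0083 with library totals and to -0.0080 and -0.0088 with limma at pseudocounts of 1 and 0.1. ATG2B turned to -0.0013 with median-of-ratios scaling, -0.016 with library totals, -0.0010 with DESeq2, and -0.011 and -0.015 with limma. With single libraries left out, log2 fold changes ranged from -0.063 to 0.027 for ULK1, -0.0068 to 0.030 for ATG13, -0.056 to 0.026 for RB1CC1, -0.091 to 0.0089 for PIK3C3, -0.037 to 0.046 for ATG2B and -0.098 to 0.051 for GABARAP. The cause of these changes was not tested. The longest 3′ UTR gave 12 members with a site of at least 7 bases in place of 11. Counts per library limit FOXO1 most, at 72 counts in its lowest library.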

Other observations

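The bases just before the sites differed among the members. In the 22 bases upstream of the 8mer, A and T made up 68.2% in ULK2 and 72.7% in ATG14, which fell, and 72.7% in ATG5, 81.8% in PIK3C3 and 22.7% in ULK1, which did not pass. Before the 7mer-m8 the share was 43.5% in ATG4D and 73.9% in ATG16L1, which fell, 60.9% in ATG12, which rose, and 78.3% in ATG2B, which did not pass.

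Promoter windows of 300 bases from RefSeq (GRCh38.p14), most of each lying before the annotated start, were matched for 36 members and searched on both strands. The E-box CACGTG was found in ATG14 and ATG3, and in 7.26% of 35116 promoters. Its extended form TCACGTGA, the core of the element bound by TFEB, overlaps the E-box and was found in ATG3, and in 0.98% of all promoters. The FOXO motif GTAAACA was found in CALCOCO2, and in 3.42% of all promoters. Members were counted once each if any window of theirs matched, whereas the background counts single windows, so the units differ. A match is a description of these letters and not a bound site.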
